A study of Mus musculus with 27 samples.

Results

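The 9 genes described here, of the contractile and mesenchymal cytoskeleton, are Acta2, Tagln, Cnn1, Cnn2, Tpm1, Tpm2, Myl9, Vim and Thy1, followed through loss of Dicer in mouse embryonic stem cells. They were taken by name, with the gene identifiers of the deposited tables matched to symbols through the GENCODE M21 annotation, and all 9 were found among the 38123 genes listed. All 9 reached the minimum level for testing. The cells, a line labelled DTCM23/49, were XY embryonic stem cells whose Dicer allele could be deleted on demand, in every sample, kept in serum and leukemia inhibitory factor on gelatin. Polyadenylated RNA was sequenced with paired reads of 100 bases from the nucleus and the cytoplasm on day 12 and on day 0, and from whole cells on days 0, 4, 8, 10 and 12, with 3 biological replicates in each of the 9 groups. Day 0 cells were collected before deletion of the RNase III domain of Dicer, which was induced with 4-hydroxytamoxifen at 800 nM, and later cells came from Dicer-deficient colonies that were selected and expanded. Ethanol-treated controls are mentioned in the labels' protocol, but no library after day 0 is labelled as one, so loss of Dicer cannot be told apart from drug, time in culture or colony expansion.

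Contractile cells pull by sliding myosin II along actin filaments. In smooth muscle and in myofibroblasts these filaments hold the actin isoform encoded by Acta2, with tropomyosins lying along them and transgelin and calponins bound to their side, while the phosphorylated regulatory light chain encoded by Myl9 switches the myosin on. Vimentin forms the intermediate filaments of mesenchymal cells, and Thy1 encodes a surface glycoprotein anchored in the membrane by a lipid. Many contractile genes carry CArG boxes, short motifs bound by serum response factor, which together with myocardin-related factors couples transcription to the state of actin.

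Because the contractile genes are the textbook CArG genes, the boxes in the members' promoters were looked up and are shown here. RefSeq promoter windows on GRCm38.p6, from 250 bases before to 50 bases after the start, were matched for 7 of the 9 members, all but Tagln and Thy1. A strict CArG box was taken as CC, then 6 bases that are each A or T, then GG, a pattern that reads alike on both strands. A looser box allowed 1 of the 6 core bases to be G or C. Strict boxes lay in 2 of the 7 windows, against 1.63% of 32851 RefSeq promoters, and strict or looser boxes in 3 of the 7, against 9.98%. The lines below give each box in capitals with its flanks, 5′ to 3′ on the strand of the gene.
Acta2, looser box, chr19:34255438-34255467, minus strand, 84 bases before the start: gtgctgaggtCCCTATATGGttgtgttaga
Acta2, looser box, chr19:34255388-34255417, minus strand, 34 bases before the start: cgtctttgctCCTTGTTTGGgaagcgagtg
Myl9, strict box, chr2:156775293-156775322, plus strand, 161 bases before the start: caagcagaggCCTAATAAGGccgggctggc
Myl9, looser box, chr2:156775355-156775384, plus strand, 99 bases before the start: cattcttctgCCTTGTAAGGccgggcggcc
Cnn2, strict box, chr10:79988534-79988563, plus strand, 56 bases before the start: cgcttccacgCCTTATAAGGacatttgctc
The RefSeq start of Acta2 lies 217 bases downstream of the 5′ end of the gene in GENCODE M21, so both Acta2 boxes fall inside the gene as GENCODE draws it. The boxes of Myl9 and Cnn2 lie before the start in both annotations, which differ by 44 and 16 bases. A match is a description of the letters only, and the windows of Cnn1, Tpm1, Tpm2 and Vim held neither form. The RefSeq starts of Vim, Tpm2 and Tpm1 lie 384, 211 and 193 bases downstream of the GENCODE 5′ end. The Vim window therefore held no sequence before that end, and those of Tpm2 and Tpm1 held little, so boxes there were mostly not searched for.

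The deposited FPKM values (fragments mapped to a transcript, adjusted for its length and for sequencing depth) summed to 275545 to 459892 per library, and 12218 to 14023 genes reached 1 FPKM. Read totals are unknown, but steps between low values put the depth between 0.721 and 3.62, with replicate 1 of whole cell day 4 as 1. The depth differed between days in whole cells. It was 3.62, 3.07 and 3.17 in the day 0 libraries and lower in every later whole cell library, with 0.963, 0.737 and 0.865 at day 10. Whole cell comparisons against day 0 therefore also set deeper against shallower libraries, and the part of depth in the changes was not tested. Dicer1, the targeted gene, averaged 16.3 ± 1.47 FPKM in whole cells at day 0 and 1.83 ± 0.12 at day 10, but held 16.7, 13.8 and 13.4 FPKM in the libraries labelled day 12, which goes against their label. Those libraries are therefore called the libraries labelled day 12. In the fraction libraries Dicer1 was low at day 12, at 3.42 to 5.46 FPKM in the nucleus at day 12 and 7.86 to 16.8 FPKM at day 0, and at 2.73 to 3.45 FPKM in the cytoplasm at day 12 and 21.2 to 23.5 FPKM at day 0. Among whole cell libraries replicate 3 of day 4 stood apart, with the highest FPKM sum and a mean correlation of 0.971 with its group, against 0.990 or more in the other whole cell groups. In the nucleus, replicate 1 of day 12 and replicate 3 of day 0 lay farthest from the other replicates of their group. Embryonic stem cell markers were present in every group, 5 of 5 at 1 FPKM or more, with a summed level of 809 to 856 FPKM at day 10 and 787 to 862 FPKM at day 0. Myh11, the myosin heavy chain that defines smooth muscle, was near 0 and averaged 0.233 FPKM at day 10 and 0.0380 FPKM at day 0.

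Before the loss of Dicer the members differed widely in level. FPKM is per length, so genes can be set side by side: at whole cell day 0 Vim was the highest at 82.0 ± 6.95 FPKM (SD, n = 3, as for all levels below), and 4.18% of genes at 0.5 FPKM or more in a group were higher. Cnn2 followed with 60.1 ± 4.22 FPKM, Tpm1 with 52.2 ± 4.01 and Tagln with 34.3 ± 5.31. Acta2 was at 19.1 ± 3.81 FPKM, Tpm2 at 18.8 ± 0.84 and Myl9 at 16.6 ± 2.19, levels whose libraries overlapped. Cnn1 at 10.2 ± 1.56 and Thy1 at 7.62 ± 0.33 FPKM closed the order.

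Acta2 (ENSMUSG00000035783; GRCm38 chr19:34241090-34255590, minus strand), the actin of smooth muscle thin filaments, changed most in whole cells. It held 14.7, 21.6 and 20.9 FPKM at day 0, 21.1, 22.6 and 31.6 at day 4, 111, 113 and 116 at day 8, 171, 172 and 178 at day 10, and 30.4, 34.4 and 29.9 in the libraries labelled day 12. All libraries of days 8 and 10 lay far above all others, while days 0 and 4 overlapped. Changes are differences of mean log2(FPKM + 0.5) ± SE, with limma's p adjusted over all genes of the fit by the Benjamini-Hochberg method and a threshold of 0.05. Against day 0 Acta2 changed by 0.39 ± 0.15 at day 4 (adjusted p = 0.18), by 2.56 ± 0.15 at day 8 (adjusted p = 1.12e-07) and by 3.18 ± 0.15 at day 10 (adjusted p = 7.76e-09). The day 10 mean of 174 ± 3.61 FPKM was 912% of the day 0 mean. In bulk RNA, a change in the share of cells that express a gene and a change in RNA per cell cannot be told apart. Acta2 shares much of its coding sequence with the other actins, and the sources used here do not give how reads with several matches were counted, so its level is uncertain to that extent.

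Tagln (ENSMUSG00000032085; chr9:45929619-45936058, minus strand) encodes transgelin, an actin-bundling protein of smooth muscle. Its libraries held 28.5, 38.9 and 35.6 FPKM at day 0, 37.6, 36.0 and 59.4 at day 4, 118, 129 and 114 at day 8, 150, 140 and 136 at day 10, and 57.9, 67.8 and 56.5 in the libraries labelled day 12. The rise came between days 4 and 8, where the change was 1.47 ± 0.17 (adjusted p = 0.000104), and at day 10 the level was 2.04 ± 0.17 above day 0 (adjusted p = 7.9e-07). Tagln overlaps Pcsk7, a protease gene on the plus strand, and whether the counting used strand is not given in the sources used here, so reads of both genes may not have been told apart. Pcsk7 itself averaged only 1.46 to 4.71 FPKM over the 9 groups. No other member overlaps an annotated gene among those in the deposited tables.

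The calponins, which bind actin and restrain its use by myosin, moved by different courses. Cnn1 (ENSMUSG00000001349; chr9:22099216-22109630, plus strand), the smooth muscle calponin, held 8.38, 11.2 and 10.9 FPKM at day 0, 8.28, 8.10 and 10.6 at day 4, 23.6, 25.1 and 26.3 at day 8, and 12.4, 14.5 and 12.8 at day 10. It stood highest at day 8, clear of every other group, and was lower again at day 10. The change was 1.27 ± 0.12 from day 0 to day 8 (adjusted p = 8.11e-06) and -0.89 ± 0.12 from day 8 to day 10 (adjusted p = 0.000897), and it was the only member to rise and then fall between these days. What remained at day 10 against day 0, 0.37 ± 0.12 (adjusted p = 0.0259), lost its call under median-of-ratios scaling (adjusted p = 0.168) and quantile normalization (0.253), and without day 0 replicate 1 (0.128) and without day 10 replicate 2 (0.102).

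Cnn2 (ENSMUSG00000004665; chr10:79988584-79996062, plus strand), the calponin of many non-muscle cells, held 55.4, 61.3 and 63.6 FPKM at day 0, 56.3, 54.7 and 59.7 at day 4, 99.3, 109 and 99.1 at day 8, and 102, 110 and 109 at day 10. It formed a step, with days 0 and 4 overlapping and days 8 and 10 overlapping. The change against day 0 was 0.77 ± 0.07 at day 8 (adjusted p = 8.24e-06) and 0.83 ± 0.07 at day 10 (adjusted p = 1.77e-06).

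Both tropomyosin genes rose. Tpm1 (ENSMUSG00000032366; chr9:67022590-67049406, minus strand) averaged 52.2 ± 4.01 FPKM on day 0, 63.1 ± 8.75 on day 4, 135 ± 6.10 on day 8 and 143 ± 2.46 on day 10. Like Cnn2 it rose by day 8 (1.36 ± 0.10, adjusted p = 6e-07) and from there to day 10 changed by 0.09 ± 0.10 (adjusted p = 0.682). Tpm2 (ENSMUSG00000028464; chr4:43514711-43523765, minus strand) climbed more evenly, with 18.8 ± 0.84 FPKM on day 0, 21.9 ± 3.86 on day 4, 29.1 ± 3.61 on day 8 and 39.4 ± 1.59 on day 10, and was 1.05 ± 0.13 above day 0 at day 10 (adjusted p = 2.04e-05). Its step from day 4 to day 8, 0.41 ± 0.13 (adjusted p = 0.0356), lost its call in 5 of the 6 fits that left out 1 library of these days, with adjusted p up to 0.137.

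Myl9 (ENSMUSG00000067818; chr2:156775420-156781658, plus strand), the regulatory light chain of smooth muscle and non-muscle myosin II, held 14.3, 17.1 and 18.6 FPKM at day 0, 17.8, 12.8 and 17.3 at day 4, 30.6, 35.5 and 31.4 at day 8, and 45.1, 54.4 and 54.2 at day 10. Days 0 and 4 overlapped, and days 8 and 10 lay clear of them and of each other. The change at day 10 was 1.60 ± 0.15 (adjusted p = 2.06e-06).

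Vim (ENSMUSG00000026728; chr2:13573927-13582826, plus strand), the vimentin gene, was the only member to rise by day 4. It held 74.5, 83.3 and 88.2 FPKM at day 0, 126, 118 and 158 at day 4, 345, 324 and 343 at day 8, 504, 520 and 533 at day 10, and 126, 151 and 128 in the libraries labelled day 12. Each later day up to day 10 lay clear of the day before, as 12.1%, 20.9% and 21.3% of all genes lay clear above in these steps. The day 4 change was 0.70 ± 0.11 (adjusted p = 0.00116), a call that was lost when only the day 4 and day 0 libraries were fitted (adjusted p = 0.0704). At day 10 Vim was 2.66 ± 0.11 above day 0 (adjusted p = 2.05e-09), and 0.415% of genes had a higher FPKM.

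Thy1 (ENSMUSG00000032011; chr9:44043384-44048579, plus strand), often used as a surface marker of fibroblasts, went the other way. It held 7.91, 7.26 and 7.69 FPKM at day 0, 3.66, 4.32 and 3.89 at day 4, 2.57, 3.34 and 2.63 at day 8, 2.35, 1.48 and 1.62 at day 10, and 7.20, 5.56 and 7.90 in the libraries labelled day 12. The fall was already clear of day 0 at day 4, with a change of -0.87 ± 0.15 (adjusted p = 0.00313), and reached -1.83 ± 0.15 at day 10 (adjusted p = 1.07e-06), where Thy1 stood at 23.8% of its day 0 level. Only 0.507% of the genes tested had a fall at least as large.

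**Figure D1:**
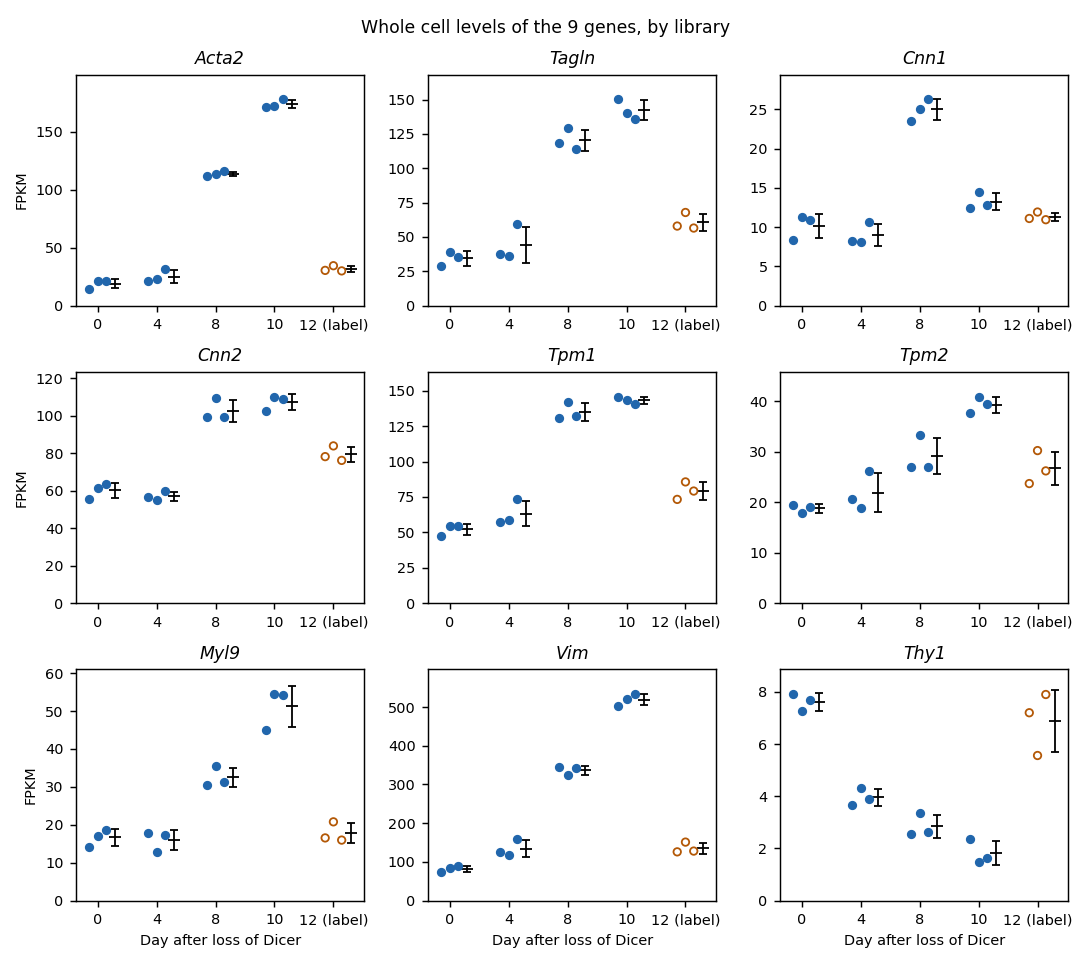
FPKM of each of the 9 genes in every whole cell library (points) by day, with the mean and SD of the 3 libraries beside them; open points are the libraries labelled day 12. Acta2 reaches 171 to 178 FPKM at day 10, against 14.7 to 21.6 FPKM at day 0, Cnn1 is highest at day 8, and Thy1 declines up to day 10.

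Counted over the 9 members, few changed by day 4 and all by day 8. At day 4 against day 0, 1 member rose (Vim) and 1 fell (Thy1), with 6.70% of all 15991 genes called (4.88% higher and 1.82% lower). Replicate 3 of day 4 held the highest day 4 values of Acta2, Tagln, Vim, Cnn1, Cnn2, Tpm1 and Tpm2, and without it 1721 genes were called in place of 1071. The calls of Vim (0.57, adjusted p = 0.000809) and Thy1 (-0.86, 0.00566) held without it, and Acta2 was at 0.21 (0.328) and Tagln at 0.11 (0.613). At day 8 against day 0, 8 rose and 1 fell, with 29.8% of genes called (20.2% higher and 9.62% lower), and the members' median change was 1.27, against 0.06 over all genes. At day 10 against day 0 the counts were again 8 and 1, with 43.7% of genes called (27.7% higher and 16.0% lower), and medians of 1.45 for the members and 0.09 for all genes. Among the genes called, 63.4% were higher at day 10, or 53.3% after median-of-ratios scaling and 44.4% after quantile normalization, and at day 8 67.7%, or 56.3% and 45.9%. Under these 2 settings the members' counts stayed at 8 and 1 at day 8, while at day 10 Cnn1 lost its call (adjusted p = 0.168 and 0.253). In the step from day 4 to day 8, 8 members rose and Thy1 missed the threshold (-0.42 ± 0.15, adjusted p = 0.0727), with 19.9% of genes called (13.2% higher and 6.72% lower). Acta2 ranked at position 9 among all genes by size of rise in that step. An exact 2-sided permutation test cannot go below p = 0.1 with 3 libraries against 3, and this value was reached by all 9 members at day 8 and at day 10 against day 0. Any gene whose libraries lie clear of day 0 reaches it. Of all genes 33.8% lay clear above day 0 and 20.3% below at day 8, and 38.6% and 25.3% at day 10. At day 4 the shares were 12.1% and 7.18%. The comparisons against day 0 share the day 0 libraries, which also had the highest depth among the whole cell libraries.

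**Figure D2:**
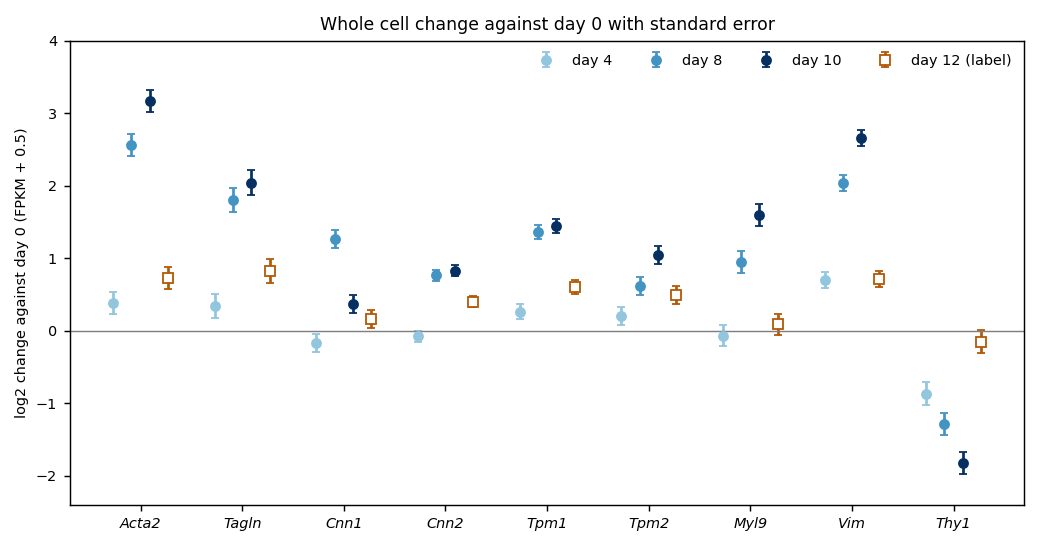
Change of each gene against whole cell day 0, as the difference of mean log2(FPKM + 0.5) with its standard error, for days 4, 8 and 10 (filled) and for the libraries labelled day 12 (open squares). At day 10 the values run from -1.83 for Thy1 to 3.18 for Acta2, and for all 9 genes the libraries labelled day 12 lie nearer to 0 than days 8 and 10 do.

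From day 8 to day 10 the members parted, with 8.44% of genes called (5.20% higher and 3.24% lower). Vim rose by a further 0.62 ± 0.11 (adjusted p = 0.00413), Myl9 by 0.65 ± 0.15 (0.0167) and Acta2 by 0.61 ± 0.15 (0.0267), while Cnn1 and Thy1 (-0.54 ± 0.15, 0.0467) fell. Only the calls of Vim and Cnn1 held in all 6 fits that left out 1 library of these days. Acta2 lost its call in 6 of the 6, Thy1 in 5 and Myl9 in 4, and without the libraries labelled day 12 in the fit the members called numbered 3.

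In the libraries labelled day 12 the mean of every member lay nearer to day 0 than to day 10 on the log2 scale. The margin was wide for Acta2, Vim, Myl9 and Thy1. It was small for Cnn1, Cnn2 and Tpm2, which stood about midway, and Cnn1 was called neither against day 0 (0.16) nor against day 10 (-0.21). Against day 10, 7 fell and Thy1 rose, with 45.8% of genes called (20.6% higher and 25.2% lower). Acta2 was lower by -2.44 ± 0.15 (adjusted p = 1.35e-07), Vim by -1.94 ± 0.11 (6.28e-08) and Myl9 by -1.51 ± 0.15 (4.33e-06), and Thy1 was higher by 1.68 ± 0.15 (2.83e-06). Against day 0, 6 members were higher and 3 were not called, with 13.6% of genes called (10.2% higher and 3.34% lower). Tagln was higher by 0.82 ± 0.17 (adjusted p = 0.00574), Acta2 by 0.73 ± 0.15 (0.00658), Vim by 0.71 ± 0.11 (0.000763), Tpm1 by 0.60 ± 0.10 (0.00119), Tpm2 by 0.49 ± 0.13 (0.0198) and Cnn2 by 0.40 ± 0.07 (0.00329). The call of Tpm2 was lost in 4 of the 6 fits that left out 1 library of these groups, and Myl9, Cnn1 and Thy1 did not pass (0.09, 0.16 and -0.15). Dicer1 in these libraries was close to day 0 as well, so a direction drawn from the label day 12 in whole cells carries that reservation.

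Within their protein families Tpm1, Tpm2, Tagln, Cnn2, Acta2, Myl9 and Vim took larger shares at day 10 than at day 0, with no overlap between the libraries of these days, while the shares of Cnn1 overlapped. Shares are of summed FPKM, and Tpm3, Actb, Actg1 and the paired light chain genes Myl12a and Myl12b have near-identical copies, so theirs are uncertain. Tpm1 made up 26.1 ± 1.24% of the FPKM of the 4 tropomyosin genes on day 0, 32.8 ± 1.19% on day 4, 43.0 ± 0.36% on day 8 and 40.3 ± 0.42% on day 10, and passed Tpm3, which held 23.5 ± 0.70% at day 10 and 43.2 ± 1.04% at day 0. Tpm2 held 11.1 ± 0.65% at day 10 and 9.42 ± 0.70% at day 0. Tagln held 45.6 ± 1.23% of the transgelin genes at day 10 and 30.1 ± 4.06% at day 0. Cnn2 held 23.7 ± 1.01% of the calponin genes at day 10 and 19.0 ± 0.31% at day 0, and Cnn1 2.93 ± 0.29% and 3.22 ± 0.36%, both below Cnn3, which held 73.4 ± 1.28% at day 10 and 77.8 ± 0.67% at day 0. Myl9 held 14.4 ± 0.98% of the regulatory light chain genes at day 10 and 6.79 ± 0.80% at day 0. Acta2 remained a small part of all actin, 7.30 ± 0.28% at day 10 and 1.16 ± 0.22% at day 0, beside Actb at 72.8 ± 0.25% and 57.1 ± 3.39%. Vim held 93.6 ± 0.26% of its intermediate filament family, measured with Des, Nes, Gfap and Prph, at day 10 and 74.4 ± 0.55% at day 0. Desmin, the muscle member of that family, was at 3.49 ± 0.52 FPKM at day 10 and 4.02 ± 0.21 FPKM at day 0.

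**Figure D3:**
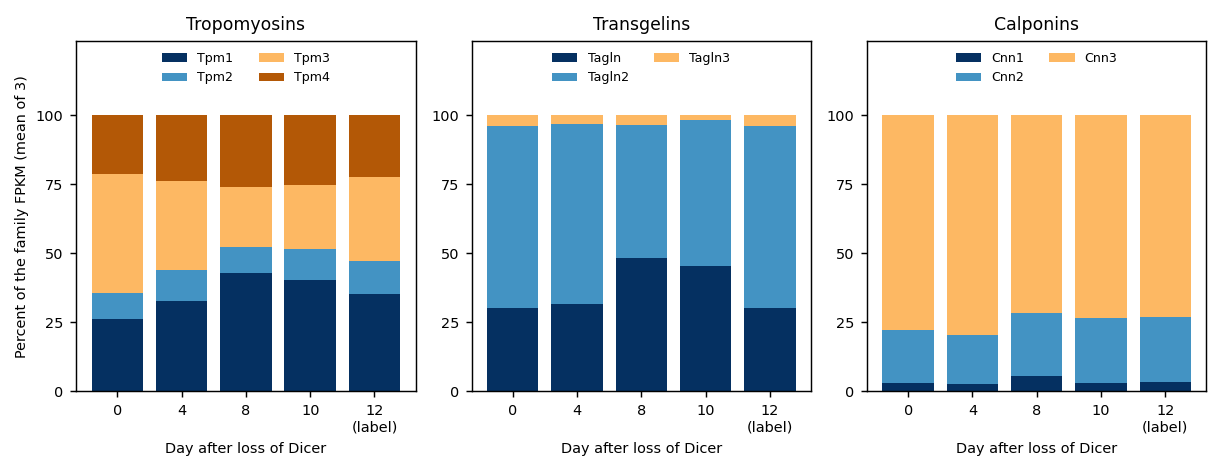
Share of each gene in the summed FPKM of the tropomyosin, transgelin and calponin genes in whole cells by day, as means of 3 libraries. The share of Tpm1 is 40.3% at day 10 and 26.1% at day 0, and Cnn3 holds 71.6% to 79.7% of the calponins throughout.

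Genes that work with the members were described from lists of textbook genes. Each list is given with the number of tested genes called at day 10 against day 0. Of all genes, 43.7% were called there (27.7% higher and 16.0% lower), with a median change of 0.09. The lists share genes, such as Actg2 and Csrp1, so their counts are not separate results. Of the 9 tested genes of the smooth muscle contractile apparatus, 6 rose and 0 fell, among them the actin-binding Cald1 (2.23), the LIM protein gene Csrp1 (1.55) and Pdlim7 (1.29), with a list median of 1.09. Of the 16 stress fibre and focal adhesion genes, 11 rose and 0 fell (median 0.80), with Parva at 2.11, Tln1 at 1.34, Zyx at 1.18 and Palld at 1.11, all genes of proteins at integrin adhesions or along actin bundles. Among 14 SRF and MRTF factors and targets, 10 rose and 1, Fos, fell (median 0.93), led by Fhl2 (2.34), Tgfb1i1 (1.98) and Ccn2 (1.86). Of 16 relatives of the members, 10 rose and 1 fell, the cytoplasmic actin gene Actg1 (-0.65 ± 0.13, adjusted p = 0.00117). The muscle actin gene Acta1 was higher by 1.90 ± 0.11 (adjusted p = 5.72e-08), Actg2 by 1.84 ± 0.26 (7.69e-05) and Actc1 by 1.53 ± 0.21 (6.75e-05).

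Of 13 TGF-beta ligands, receptors and feedback genes, 10 rose and 0 fell at day 10 (median 0.67), with the receptor Tgfbr2 at 2.57 and the ligand Tgfb2 at 2.10. Of 11 factors of the epithelial to mesenchymal change, 9 rose and 0 fell (median 0.93), among them N-cadherin, Cdh2 (1.82), and the transcription factor Zeb1 (1.71). Epithelial junction and keratin genes did not fall as a group, since 6 of 12 rose and 2, Cldn6 and Esrp1, fell (median 0.35), with Krt8 higher by 1.86 ± 0.15 (adjusted p = 8.58e-07) and Krt18 by 1.71 ± 0.10 (5.54e-08). Markers of other cells moved in part. The summed fibroblast list (9 genes, Col1a1 among them) was 8.97 to 10.1 FPKM at day 10 and 2.29 to 3.56 at day 0, with 3 of 4 tested genes higher, 2 of the 9 at 1 FPKM or more and Lum listed at 0 in all day 0 libraries. The 6 smooth muscle markers summed to 14.6 to 16.7 FPKM at day 10 and 11.8 to 13.3 at day 0, with 2 of 4 tested genes higher. Their sum was 16.1 to 16.9 FPKM in the libraries labelled day 12, where most members were lower than at day 10. Of 4 tested skeletal or cardiac muscle markers, 2 rose and 1, Myh3, fell (-1.23 ± 0.18, adjusted p = 0.000119). Endothelial Pecam1, also a gene of embryonic stem cells, was higher by 1.23 ± 0.15 (adjusted p = 2.2e-05). The part of such cells in the members' changes was not tested.

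Seen over the whole cell groups, 7 members followed each other closely, Cnn1 less so, and Thy1 ran against the rest. Over the 5 whole cell means, which share libraries with every comparison above, the correlation of log2(FPKM + 0.5) was 0.999 for Tagln and Tpm1, 0.990 for Acta2 and Vim and 0.987 for Acta2 and Tagln, and -0.939 for Vim and Thy1. The 21 pairs without Cnn1 and Thy1 ran from 0.899 to 0.999, the 7 pairs of Cnn1 without Thy1 from 0.486 to 0.770, and the 8 pairs of Thy1 from -0.939 to -0.487. Over all 9 group means, which set whole cell beside fraction libraries, 21 of the 21 pairs and 6 of the 7 were lower, all but Cnn1 and Cnn2 (0.776 over 9 groups and 0.770 over 5). Over all 9 group means Acta2 and Vim correlated at 0.779 and Acta2 and Cnn1 at 0.184. Among 11267 other genes, those whose 9 group means were most like Acta2 were Tgfb1i1 (0.967), Sdc3 (0.962), Nbl1 (0.954) and Ets1 (0.952). For Thy1 they were Arrb1 (0.984), Mcm8 (0.982), Crb3 (0.981) and Pfkp (0.975).

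In cytoplasmic RNA the members called at day 12 against day 0 had the same sign as in whole cells at day 10. Of the members 6 were higher at day 12 than at day 0 and Thy1 was lower, with 32.6% of 17124 genes called (16.0% higher and 16.6% lower), and the medians were 0.89 for the members and -0.01 for all genes. Vim held 470, 453 and 434 FPKM at day 12, against 87.0, 90.6 and 84.2 FPKM at day 0. It changed by 2.37 ± 0.28 (adjusted p = 0.000134), and only 0.572% of the genes tested rose at least as much. Acta2 held 38.5, 41.3 and 38.0 FPKM at day 12, against 23.2, 21.1 and 19.0 FPKM at day 0, a change of 0.88 ± 0.16 (adjusted p = 0.00178). Tagln held 53.9, 57.2 and 57.6 FPKM at day 12, against 27.6, 31.6 and 29.6 FPKM at day 0 (0.91 ± 0.18, adjusted p = 0.00263). These groups of 3 lay clear of each other for all 3 genes, as for 30.9% of genes above day 0 and 34% below.

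Also in the cytoplasm, Myl9 averaged 25.3 ± 4.02 FPKM at day 12 and 10.6 ± 0.71 FPKM at day 0 (1.20 ± 0.12, adjusted p = 6.21e-05). Tpm1 averaged 107 ± 2.48 FPKM at day 12 and 52.3 ± 3.70 at day 0 (1.03 ± 0.18, adjusted p = 0.00144), and Tpm2 25.4 ± 2.42 and 16.1 ± 0.69 FPKM (0.64 ± 0.10, adjusted p = 0.000639). Thy1 held 1.77, 2.04 and 1.83 FPKM at day 12, against 8.79, 8.33 and 6.94 FPKM at day 0, a fall of -1.83 ± 0.23 (adjusted p = 0.000193). Cnn1 did not pass the test, at 4.30 ± 0.09 FPKM at day 12 and 6.34 ± 0.68 at day 0 (-0.51 ± 0.20, adjusted p = 0.0793), nor did Cnn2 at 67.5 ± 2.19 and 57.7 ± 2.15 FPKM (0.22 ± 0.15, adjusted p = 0.307). The 7 calls in the cytoplasm held under every alternative run.

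In the nucleus Acta2, Tagln, Tpm1 and Cnn2 had the opposite sign to whole cells at day 10 and to the cytoplasm, where Cnn2 was not called (0.22). Cnn1, also lower in the cytoplasm but not called there (-0.51), was opposite only to whole cells at day 10 (0.37). In the nucleus 2 members were higher at day 12 than at day 0 and 6 were lower, with 36.7% of genes called (15.1% higher and 21.6% lower). The medians were -0.64 for the members and -0.10 for all genes. Acta2 held 53.9, 72.4 and 78.5 FPKM at day 12, against 143, 113 and 105 FPKM at day 0, a change of -0.82 ± 0.16 (adjusted p = 0.00293). Every nuclear day 12 library thus lay below every nuclear day 0 library, as for 24.8% of genes tested, where the cytoplasm had the reverse. Cnn1 held 2.47, 1.92 and 2.25 FPKM at day 12, against 7.22, 7.01 and 3.79 FPKM at day 0 (-1.22 ± 0.20, adjusted p = 0.00119). Cnn2 held 61.2, 39.1 and 39.4 FPKM at day 12, against 79.8, 72.7 and 71.5 FPKM at day 0 (-0.71 ± 0.15, adjusted p = 0.00547). Both calponins were clear between days, with replicate 1 of day 12 the highest of its group and replicate 3 of day 0 the lowest.

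Tagln in the nucleus held 53.8, 37.6 and 39.0 FPKM at day 12, against 82.9, 69.7 and 51.8 FPKM at day 0, and the days overlapped (-0.64 ± 0.18, adjusted p = 0.0175). Tpm1 overlapped likewise, at 99.6, 67.6 and 68.4 FPKM at day 12, against 136, 130 and 92.3 FPKM at day 0 (-0.61 ± 0.18, adjusted p = 0.0225). Vim was higher, at 392, 334 and 350 FPKM at day 12, against 267, 241 and 106 FPKM at day 0 (0.92 ± 0.28, adjusted p = 0.0263), and so was Myl9, at 15.6 ± 1.82 and 8.56 ± 0.33 FPKM (0.82 ± 0.12, adjusted p = 0.000734). Thy1 fell here as elsewhere, to 0.673, 1.52 and 1.97 FPKM at day 12, against 7.21, 6.49 and 5.97 FPKM at day 0 (-1.96 ± 0.23, adjusted p = 0.000165). Tpm2 did not pass (0.14 ± 0.10, adjusted p = 0.288). Fitted on the nuclear libraries alone, 3 members were called in place of 8, with Acta2 at an adjusted p of 0.0584, Cnn2 at 0.078, Tagln at 0.124, Tpm1 at 0.146 and Vim at 0.154. Tpm1 lost its call in 4, Tagln in 3 and Vim in 2 of the 6 fits that left out 1 nuclear library.

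**Figure D4:**
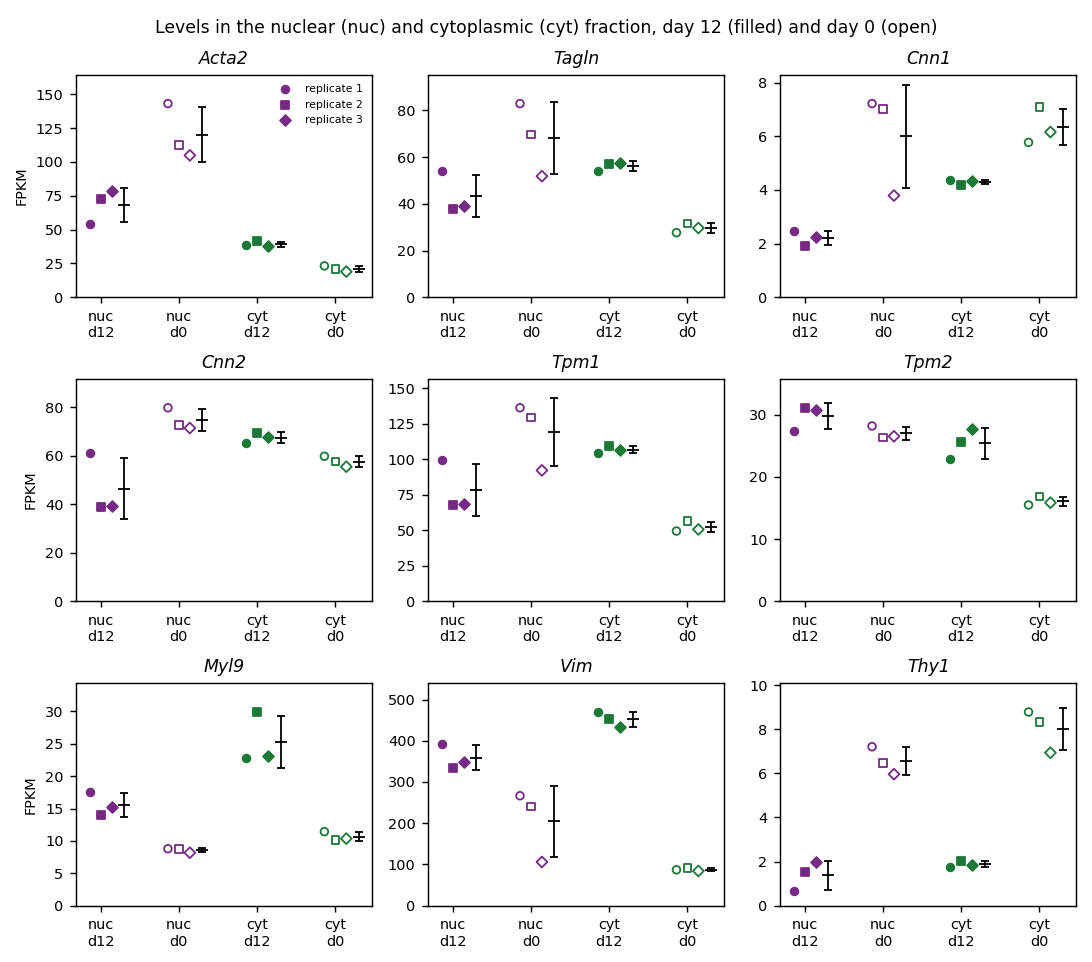
FPKM of each of the 9 genes in every nuclear (nuc) and cytoplasmic (cyt) library, day 12 (d12, filled) left of day 0 (d0, open), with marker shapes for replicates and bars for the mean and SD of 3 libraries. For Acta2 the nuclear day 12 libraries (53.9 to 78.5 FPKM) lie below those of day 0 (105 to 143 FPKM), and the cytoplasmic ones (38.0 to 41.3 FPKM) above those of day 0 (19.0 to 23.2 FPKM).

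FPKM is relative within a library, so nucleus and cytoplasm can be compared in composition and not in amount of RNA. At day 12, 1 member was higher in the nucleus than in the cytoplasm and 3 were lower, with 34.1% of genes called (18.4% higher and 15.7% lower). Acta2 was higher by 0.77 ± 0.16 (adjusted p = 0.00387), while Cnn1 (-0.83 ± 0.20, 0.00961), Myl9 (-0.67 ± 0.12, 0.00214) and Cnn2 (-0.56 ± 0.15, 0.0167) were lower. The call of Cnn2 was lost with quantile normalization (adjusted p = 0.184), with only the 2 groups fitted (0.0561) and in 4 of 6 fits that left out 1 library. At day 0, 5 members were higher in the nucleus and 0 lower, with 41.8% of genes called (25.3% higher and 16.4% lower). Among the genes called at day 0, 60.7% were higher in the nucleus, or 39.4% with quantile normalization. Acta2 led with 2.48 ± 0.16 (adjusted p = 2.98e-06), and 1.53% of genes were at least as far above the cytoplasm. Tpm1 (1.17 ± 0.18, 0.000494), Tagln (1.16 ± 0.18, 0.000475), Vim (1.11 ± 0.28, 0.00873) and Tpm2 (0.73 ± 0.10, 0.000204) followed.

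The change of this ratio between the days was tested directly as an interaction. It was called lower at day 12 for 3 members, Acta2 (-1.70 ± 0.22, adjusted p = 0.0101), Tpm1 (-1.63 ± 0.25, 0.0164) and Tagln (-1.55 ± 0.25, 0.0187), with 1.33% of genes called (0.274% higher and 1.05% lower). Among these, 20.7% were higher, or 31.6% after median-of-ratios scaling and 40.9% after quantile normalization. All 9 members had a negative value, with a median of -0.93, against -0.06 over all genes, but Thy1 turned positive without nucleus day 12 replicate 1 (0.18). For Vim (-1.45 ± 0.39, adjusted p = 0.0975) and Cnn2 (-0.93 ± 0.22, 0.0658) the test was not passed. Acta2 kept its call under every alternative run, with adjusted p up to 0.0467. Tagln lost it in 8 and Tpm1 in 5 of the 12 fits that left out 1 library, and both lost it with quantile normalization (adjusted p = 0.0664 and 0.0701).

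**Figure D5:**
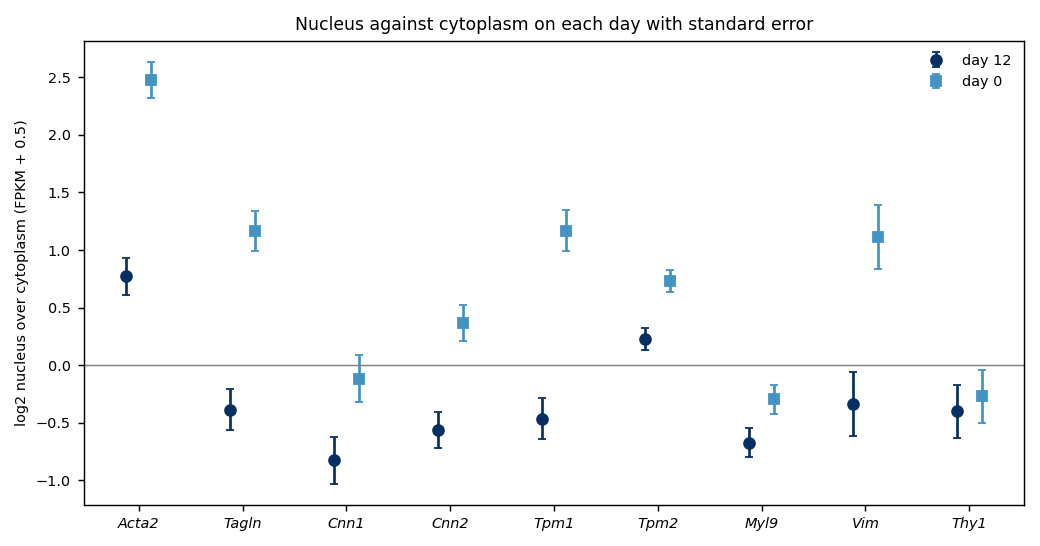
Difference of mean log2(FPKM + 0.5) between nucleus and cytoplasm for each gene, with its standard error, at day 12 (circles) and day 0 (squares). Acta2 lies at 0.77 at day 12 and 2.48 at day 0, and every gene has a lower value at day 12, by as little as 0.13 for Thy1.

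Marker lists were also followed in the fractions, and in the nucleus they did not move as groups. Of 5 tested fibroblast markers, 1 was higher and 2 were lower in the nucleus at day 12 than at day 0. Of 5 tested smooth muscle markers, 2 were higher and 2 lower, where 15.1% of all genes were called higher and 21.6% lower. The fibroblast markers summed to 10.3, 23.3 and 23.6 FPKM in the nucleus at day 12 and to 94.4, 76.9 and 30.7 FPKM at day 0, against 3.07 to 3.39 FPKM at day 12 and 2.11 to 2.34 FPKM at day 0 in the cytoplasm. Col1a1, the type I collagen gene, alone averaged 47.3 ± 25.9 FPKM in the nucleus and 1.41 ± 0.08 FPKM in the cytoplasm at day 0, while 4 of the 9 fibroblast markers reached 1 FPKM in the nucleus on each day. The smooth muscle markers summed to 19.2 to 24.5 FPKM in the nucleus at day 12 and 23.4 to 31.3 FPKM at day 0. The part of these in the members' nuclear levels was not tested. At day 0 the whole cell level of Acta2 (19.1 FPKM), Vim (82.0 FPKM) and Tpm1 (52.2 FPKM) was below the means of both fractions, as for 44.3% of 16509 genes. Cnn1 and Myl9 were above both, with every whole cell library above every fraction library, as means were for 20.9% of genes. Whole cell and fraction libraries were therefore tested in separate fits.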

How the data were processed

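The authors deposited FPKM values per gene for each library, per the file headers. TopHat2 2.0.9, Cufflinks 1.3.0 and mm9 are named, without their roles, per the submitters' processing notes. The annotation, the strand setting and the rule for multi-mapped reads were not given in the sources used here. Tables were joined by gene identifier, without regard to letter case, and positions came from GENCODE M21 on GRCm38. The labels name biological replicates without separate cultures, so p-values cover only the spread between the 3 libraries of a group. The replicate numbers were not used as pairs.

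R 4.3.3 and limma 3.58.1 (eBayes with trend) were used on log2(FPKM + 0.5), with Benjamini-Hochberg adjustment over all genes whose mean reached 0.5 FPKM in a group of the fit. A fit of the 15 whole cell libraries held 15991 genes and a fit of the 12 fraction libraries 17124. The added 0.5 makes changes of low genes look smaller. Members, gene lists and tests were chosen with earlier results of these data known. Besides the members and Dicer1, up to 4 called genes of at least 2 FPKM per list and the 4 genes most like Acta2 and Thy1 were eligible for naming. Genes named because they fell at day 10 (Actg1, Fos, Cldn6 and Esrp1) and the levels of Myh11, Lum and Des were added after their values were seen. On simulated data for whole cell day 10 (14743 genes) limma called 76% of genes shifted by 1 and 93% of genes shifted by 2, and 17 of 186 calls were false. For the cytoplasm (15211 genes) the shares were 68% and 94%, and 11 of 173 calls were false. In both simulations few genes were shifted, each gene had the same spread in all groups, and depth did not differ. The shares may therefore not hold for the data. As alternatives, the pseudocount was 0.1 or 1, the filter was dropped or set at 1 FPKM, and fits used median-of-ratios scaling, quantile normalization, protein-coding and lncRNA genes alone, a replicate block, only the groups compared, and libraries left out. Python 3.11.15 with pandas 2.3.3, numpy 2.4.6, scipy 1.17.1 and matplotlib 3.10.9 was used for the rest.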

Additional observations from a re-analysis of the deposited data

Results flagged for a closer look

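In 3 of the 9 genes the day 12 change differed between nucleus and cytoplasm by the interaction test over the 12 fraction libraries, with limma and Benjamini-Hochberg adjustment over all genes, in which 1.33% of genes were called (1.05% lower). Acta2 changed by -0.82 in the nucleus and 0.88 in the cytoplasm, a difference of -1.70 (adjusted p = 0.0101), with 3 of 3 nuclear libraries of day 12 below and 3 of 3 cytoplasmic ones above those of day 0. Of all genes, 24.8% lay clear below in the nucleus and 30.9% clear above in the cytoplasm. Tpm1 changed by -0.61 in the nucleus and 1.03 in the cytoplasm, a difference of -1.63 (adjusted p = 0.0164). Tagln changed by -0.64 in the nucleus and 0.91 in the cytoplasm, a difference of -1.55 (adjusted p = 0.0187). The nuclear days overlapped for Tpm1 and Tagln. Leaving out 1 of the 12 libraries in turn, Tagln lost its call in 8 fits and Tpm1 in 5, both lost it with quantile normalization (adjusted p = 0.0664 for Tagln and 0.0701 for Tpm1), and the members called ran from 1 to 7.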

How the results depend on the processing

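Of 1746 single gene values under an alternative, 9 changed sign, all in genes not called as reported. Myl9 in the libraries labelled day 12 against day 0 (0.09 as reported) was -0.0004 with quantile normalization and ran from -0.027 to 0.17 with 1 library left out, and Myl9 at day 4 (-0.07) ran from -0.17 to 0.081. Cnn1 in nucleus against cytoplasm at day 0 (-0.12) ran from -0.26 to 0.16, the last without nucleus day 0 replicate 3, and the ratio change of Thy1 (-0.13) from -0.36 to 0.18, the last without nucleus day 12 replicate 1. Without both of these nuclear libraries they were 0.16 and 0.12.

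With only the groups compared in the fit, calls numbered 438 in place of 1071 genes at day 4 (1 member in place of 2), 3793 in place of 2170 for the libraries labelled day 12 against day 0, 351 in place of 3181 for day 8 against day 4, 2834 in place of 1349 for day 10 against day 8, 2112 in place of 6281 in the nucleus (3 members in place of 8) and 9841 in place of 5574 in the cytoplasm. Protein-coding and lncRNA genes alone gave 509 at day 4, and leaving out the libraries labelled day 12 gave 3 members for day 10 against day 8. Quantile normalization gave 5 members in the nucleus, and 137 genes in place of 227 with 1 member in place of 3 for the ratio change. It moved the median change of all genes at day 10 to -0.08, against 0.09 as reported, and that of nucleus against cytoplasm at day 0 to -0.10, against 0.12. Leaving out the nuclear library farthest from its group on each day, which narrows the spread by construction, gave 9613 genes in the nucleus, 10885 in place of 7152 for nucleus against cytoplasm at day 0, 10197 in place of 5837 at day 12 (8 members in place of 4) and 6580 for the ratio change (8 members). Where no construction is named, the cause was not tested.

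Leaving out 1 library at a time, calls ran from 735 to 1721 genes at day 4, 1062 to 1669 for the libraries labelled day 12 against day 0, 2016 to 4530 for day 8 against day 4, 639 to 814 for day 10 against day 8 (2 to 4 members), and 24 to 1699 for the ratio change (1 to 7 members). Members called ran from 5 to 8 in the nucleus, where 4783 to 6737 of all genes were called. For nucleus against cytoplasm at day 12 they ran from 3 to 7, with 4184 to 6576 of all genes called. Deviations of same-numbered libraries from their group means correlated at -0.358 to 0.267, with 5 of 18 fraction pairs and 2 of 30 whole cell pairs over 0.1. With 3 libraries per group this cannot decide whether the numbers mark pairs. With the replicate block the ratio change was called in 53 genes in place of 227, Tpm2 from day 4 to day 8 had an adjusted p of 0.0502 and Thy1 from day 8 to day 10 one of 0.0758.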
